A study of Mus musculus with 4 samples.

Results

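The genes described here are receptors through which nerves can act on immune cells of the gut lining: Ramp1, Ramp3, Calcrl, Adrb1, Vipr1, Vipr2 and Nmur1. These 7 genes were chosen by name. In all, 6 of them were listed in each of the 4 count matrices, which together list 16500 gene symbols, and Nmur1 was listed in no matrix and is not analysed further here. The data were single-cell RNA libraries of live CD45.2+ leukocytes sorted from preparations of intraepithelial lymphocytes of uninfected C57BL/6 mice, with 1 library for each of stomach, small intestine, cecum and colon. The labels give no treatment, and do not say how many animals went into a library. Every comparison between tissues is therefore a comparison of 1 library with 1 other, without replicates and without a p-value, in which tissue, animal and library cannot be told apart. Cell gates were compared over the 4 libraries, which served as the replicates although each is a different tissue. The p-values there rest on the spread of the gate sums left after a term for the library, pooled over the gates. They do not cover the spread between animals of a tissue.

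Sympathetic nerves release noradrenaline, which acts on beta-adrenergic receptors such as the product of Adrb1. Sensory and enteric nerves release calcitonin gene-related peptide (CGRP), vasoactive intestinal peptide (VIP) and neuromedin U. The CGRP receptor is a pair of the Calcrl product, which crosses the membrane and couples to the G protein Gs, and the Ramp1 product, a small accessory protein; with the Ramp3 product in its place, Calcrl forms a receptor for adrenomedullin. Vipr1 and Vipr2 encode the VIP receptors VPAC1 and VPAC2, which also signal through Gs and cyclic AMP, and Nmur1 encodes a neuromedin U receptor that couples to Gq and is known from group 2 innate lymphoid cells (ILC2).

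Cells were assigned by marker transcripts. T cells carried CD3 transcripts and were split into Trdc-positive cells (a UMI, or unique transcript, of the T cell receptor delta chain), Cd8a-positive cells without Trdc, helper cells with Cd4 or Cd40lg and neither of those, and other T cells. The T gate held 291 cells in stomach, 2442 in small intestine, 3441 in the cecum and 3367 in the colon. Their median depth was 2538, 2320.5, 1753 and 3004 UMIs per cell in the same order. All 5 T cell genes that the gate did not use (Cd247, Lck, Cd2, Thy1 and Cd6) were detected in every T gate of every library. Detected here means a UMI in any cell of the gate, so this does not measure how pure a gate is. The makeup of the T gate differed: Trdc-positive cells numbered 52 in stomach, 1670 in small intestine, 517 in the cecum and 921 in the colon, so values are also given within the gates. Some gates described here held under 50 cells: Cd8a-positive T cells of stomach (49), NK/ILC1 cells of small intestine (48), macrophages of small intestine (30) and colon (43), dendritic-gated cells of stomach (40), cecum (29) and colon (22), B cells of small intestine (37) and ILC2 of stomach (46). The stomach T gates carried mast cell protease transcripts that the gates did not use, at 305 to 1310 CPM (counts per 1000000 UMIs of the gate) against 126847 CPM in stomach mast cells, and 5 macrophage genes at a summed 153 to 243 CPM against 40540 CPM in stomach macrophages. Mrc1, among those macrophage genes, was at 0 in the Trdc-positive and Cd8a-positive cells of stomach.

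The genes lie on different chromosomes or far apart, in the GRCm38 build with the GENCODE annotation: Ramp1 at chr1:91179822-91225196, Ramp3 at chr11:6658521-6677475, Adrb1 at chr19:56722199-56733113, Vipr1 at chr9:121642716-121672954 and Vipr2 at chr12:116077726-116146261, all on the plus strand, and Calcrl at chr2:84330626-84425411 on the minus strand. An exon of Ramp3 overlaps Gm11978, a processed pseudogene on the opposite strand. The sources used here do not say whether strand was used in counting, so reads of that pair cannot be told apart; no exon of another gene overlaps the others. The 250 bases before the RefSeq start are shown for 3 genes whose levels in T cells differed between tissues: Ramp1, with its low in the small intestine, and Adrb1 and Vipr2, with their highs there (GRCm38.p6, plus strand, capitals mark matches to 2 motifs, the cyclic AMP response element core TGACG and the GC box GGGCGG, on either strand).
Ramp1, chr1:91179572-91179821: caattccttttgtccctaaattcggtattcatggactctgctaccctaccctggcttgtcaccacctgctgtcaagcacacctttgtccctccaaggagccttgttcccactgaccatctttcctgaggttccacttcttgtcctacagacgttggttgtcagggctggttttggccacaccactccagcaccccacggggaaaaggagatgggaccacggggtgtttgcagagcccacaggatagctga
Adrb1, chr19:56721867-56722116: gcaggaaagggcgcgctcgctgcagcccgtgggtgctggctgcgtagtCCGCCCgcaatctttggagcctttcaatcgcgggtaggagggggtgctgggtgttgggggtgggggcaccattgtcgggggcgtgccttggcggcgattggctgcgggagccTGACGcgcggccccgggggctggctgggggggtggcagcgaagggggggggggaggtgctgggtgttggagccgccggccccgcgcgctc
Vipr2, chr12:116077476-116077725: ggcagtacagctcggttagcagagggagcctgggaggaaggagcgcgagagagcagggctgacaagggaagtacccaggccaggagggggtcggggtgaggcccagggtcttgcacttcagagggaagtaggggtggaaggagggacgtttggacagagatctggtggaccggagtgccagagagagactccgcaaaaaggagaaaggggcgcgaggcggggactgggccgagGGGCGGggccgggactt
The Ramp1 window held 54% G and C and neither motif. The Adrb1 window held 74% G and C, with 1 TGACG and 1 GC box (as CCGCCC), and the Vipr2 window held 65.2% with 1 GC box, against a median of 52.4% over all 32851 RefSeq windows. Matches to TGACG were present in 17.8% of all windows and to GGGCGG in 32.7%. Among the windows of all 7 genes, TGACG was found for Adrb1 and Vipr1, the GC box for Adrb1, Calcrl, Ramp3, Vipr1 and Vipr2, the T-box motif TCACAC (12.3% of all windows) for Nmur1 and the Runx motif TGTGGT (14.0%) for none. These matches describe letters in the windows and no more.

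Ramp1 transcripts in T cells were most abundant in stomach and nearly absent in the small intestine. The level over all T-gated cells was 206 CPM (95% counting interval 176–240) in stomach, 4.01 CPM (2.62–5.88) in small intestine, 70.4 CPM (64.2–77.0) in the cecum and 33.7 CPM (30.4–37.2) in the colon. No 2 of these intervals overlap. The ratio was 51.4 (33.9–81.0) for stomach over small intestine, 2.93 (2.44–3.51) for stomach over cecum and 6.13 (5.08–7.37) for stomach over colon. It was 0.0570 (0.0368–0.0846) for small intestine over cecum, 0.119 (0.0769–0.177) for small intestine over colon and 2.09 (1.82–2.40) for cecum over colon. A Ramp1 UMI was found in 22.7% of T cells in stomach, 0.901% in small intestine, 11.7% in the cecum and 8.76% in the colon; with each cell thinned to 1000 UMIs the shares were 13.1%, 0.287%, 6.80% and 3.54%. Of the 815 cells gated as B cells, 2 held a Ramp1 UMI, at median depths of 1917, 2546, 1233.5 and 1936 UMIs in stomach, small intestine, cecum and colon.

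The stomach excess of Ramp1 was carried unequally by the T gates. Trdc-positive cells of stomach had 467 CPM (364–590), with a UMI in 38.5% of 52 cells. The other libraries had 1.97 CPM in small intestine, 44.8 CPM in the cecum and 23.4 CPM in the colon for these cells. The stomach over small intestine ratio in Trdc-positive cells was 237 (118–540). The stomach cell with the most Ramp1 UMIs held 12 of the 70, and without it the stomach level was 387 CPM. Genes listed for other gates were also detected in these 52 cells. Summed levels were 153 CPM for 5 macrophage genes, 353 CPM for 5 mast cell proteases and 1453 CPM for 5 dendritic cell genes. They were 400.0 CPM for 5 B cell genes and 73.3 CPM for 5 ILC2 genes, of which Il5 and Il13 were at 0. The dendritic cell genes were Irf8, Cd7, Ly6d, H2-Ab1 and Runx2. Cd7 is also a gene of T cells, so that sum does not measure dendritic cell transcripts. The Ramp1 levels of those stomach gates were 185 CPM in macrophages, 15.1 CPM in mast cells, 166 CPM in dendritic-gated cells, 0 in B cells and 464 CPM in ILC2, and the part of such transcripts in the T cell level was not tested. Without the T cells holding a UMI of a defining macrophage, dendritic, mast, ILC2 or B cell marker, a setting chosen after the data were seen, the stomach level was 431 CPM in Trdc-positive cells and 206 CPM in all T cells.

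Cd8a-positive cells gave another order of tissues. They had 29.7 CPM of Ramp1 in stomach (4 UMIs in 49 cells), 8.04 CPM in small intestine, 57.7 CPM in the cecum and 20.9 CPM in the colon. Other T cells had 188 CPM in stomach, 18.4 CPM in small intestine, 88.4 CPM in the cecum and 63.4 CPM in the colon. Helper T cells had 146 CPM in stomach, 81.9 CPM in the cecum and 160 CPM in the colon. In small intestine 0 of 92 helper cells held a Ramp1 UMI, which allows a level of up to 14.2 CPM. The small intestine was the lowest of the 4 libraries in each T gate.

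Innate and myeloid gates held Ramp1 in every library with enough cells. In NK/ILC1 cells it was at 260 CPM (229–295) in stomach, 72.5 CPM in small intestine, 58.6 CPM in the cecum and 74.3 CPM in the colon, with a UMI in 35.8% of the 327 stomach cells. Macrophages had 185 CPM in stomach, 209 CPM in small intestine and 200 CPM in the colon, values whose intervals overlap. Dendritic-gated cells had 166 CPM in stomach, 445 CPM (399–496) in small intestine, 254 CPM in the cecum and 337 CPM in the colon. In the small intestine these 183 cells carried 66.2% of all Ramp1 UMIs of the library, and T cells 5.08%. ILC2 numbered 46 cells in stomach, against 7 in small intestine, 1 in colon and 0 in cecum, and are described for stomach only. They had 464 CPM (350–602) of Ramp1, with a UMI in 63.0% of cells. Mast cells had 15.1 CPM in stomach and 51.1 CPM in small intestine, the latter from 51 cells. The 152 plasma cells of small intestine held 1 UMI of Ramp1, 2 of Ramp3, 2 of Calcrl and 0 of the other 3 genes. Ramp1 was called in no contrast between T gates, and for NK/ILC1 over the T gates it stood at 0.88 on the log2 scale (adjusted p = 0.646, edgeR's quasi-likelihood test).

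**Figure D1:**
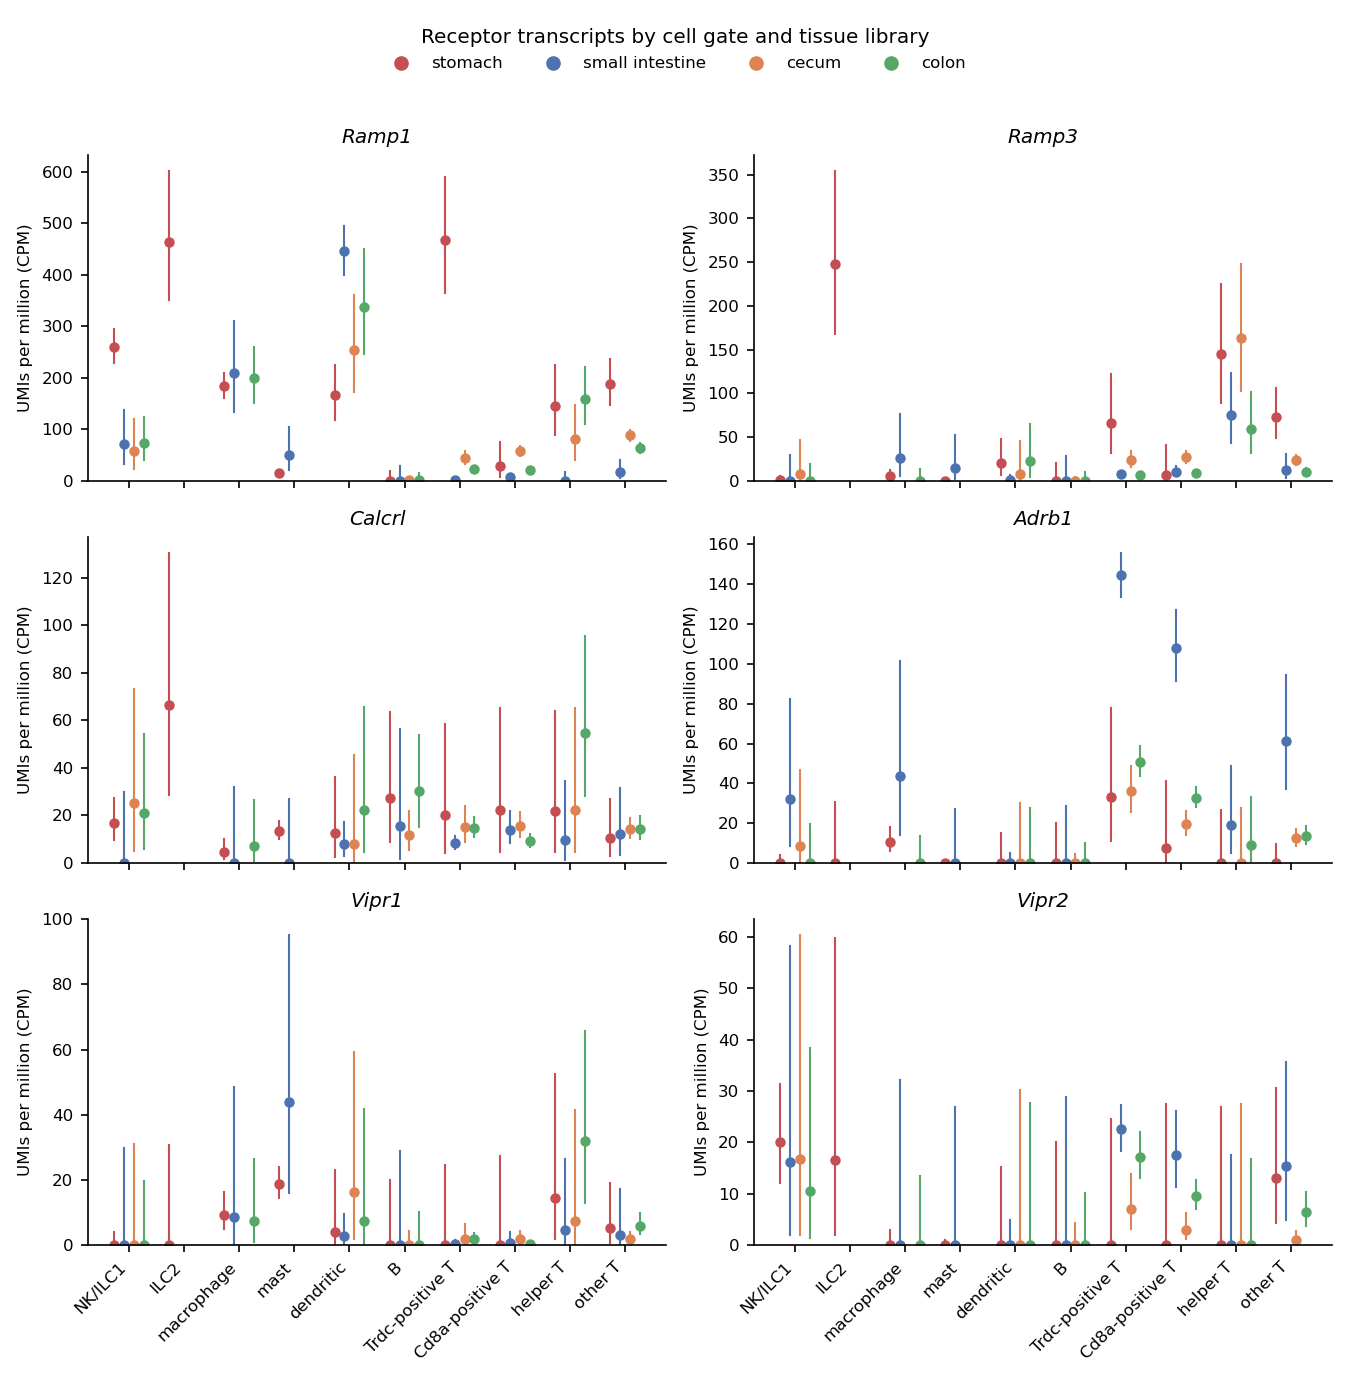
CPM of each listed receptor gene (y axes start at 0 and differ between panels) by cell gate (x axis) and tissue library (colour); points are sums over the cells of a gate with 20 cells or more, and lines are exact Poisson 95% intervals, which cover counting error only. Ramp1 is high in stomach Trdc-positive T cells (467 CPM) and low in the same gate of small intestine (1.97 CPM), while Adrb1 has its highest values in small intestine T cells (144 CPM in Trdc-positive cells).

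Among the T gates, helper T cells had the highest level of Ramp3, the partner of Calcrl in the adrenomedullin receptor, in each of the 4 libraries. Helper T cells had 146 CPM (88.9–225) of Ramp3 in stomach, 76.0 CPM (43.4–123) in small intestine, 164 CPM (103–248) in the cecum and 59.3 CPM (31.6–101) in the colon. Other T cells had 73.2 CPM in stomach, 12.2 CPM in small intestine, 23.8 CPM in the cecum and 9.91 CPM in the colon. The helper value was above the other T value in each library, with ratios of 1.99 (1.06–3.66), 6.21 (2.0–25.5), 6.90 (4.08–11.2) and 5.98 (2.81–12.1) in the same order of tissues. Over the 4 libraries the log2 fold change of helper over other T cells was 2.19 (SE 0.49), with an adjusted p of 0.00924 by edgeR's quasi-likelihood test with library as a block and Benjamini-Hochberg adjustment over 8401 genes. Ramp3 was the 1 gene called among the 4 members tested in that contrast, where 3.94% of all genes were called (2.14% higher). The call was lost with DESeq2 (adjusted p = 0.221), without the library block (0.269), and without cecum or colon, with adjusted p up to 0.30 over the libraries left out.

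Over all T-gated cells Ramp3 was at 73.3 CPM (55.8–94.6) in stomach, 10.6 CPM (8.28–13.5) in small intestine, 27.7 CPM (23.9–32.0) in the cecum and 9.59 CPM (7.89–11.6) in the colon. The stomach was the highest and the cecum next, while small intestine and colon did not differ beyond counting error (ratio 1.11, 0.809–1.51). The stomach over small intestine ratio was 6.89 (4.78–9.89), and that of cecum over colon 2.89 (2.27–3.69). In stomach Trdc-positive cells 8 of the 10 Ramp3 UMIs sat in 1 cell, and the level was 66.7 CPM with it and 13.3 CPM without it. Cd8a-positive cells had 7.43 CPM in stomach (1 UMI), 10.2 CPM in small intestine, 27.2 CPM in the cecum and 8.998 CPM in the colon. ILC2 of stomach had 248 CPM (168–355), with a UMI in 23.9% of cells. NK/ILC1 cells had 1 UMI in stomach, 0 in small intestine, 1 in the cecum and 0 in the colon. No Ramp3 UMI was found in 1464 stomach mast cells or in 815 B cells.

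Calcrl, whose product pairs with those of Ramp1 and Ramp3 in the receptors named above, was sparse everywhere. T cells had 16.2 CPM (8.60–27.6) in stomach, 9.72 CPM (7.47–12.4) in small intestine, 15.0 CPM (12.2–18.2) in the cecum and 12.8 CPM (10.8–15.1) in the colon. No ratio between tissues passed 2-fold in either direction, and only that of small intestine over cecum, 0.650 (0.466–0.898), had an interval without 1. A UMI was found in 4.47% of T cells in stomach, 2.54% in small intestine, 2.85% in the cecum and 3.98% in the colon, against 6.67%, 2.70%, 1.71% and 4.52% of B cells. The share in B cells was the larger in stomach, small intestine and colon, so the share in T cells there was not above that of B cells. The 815 B cells held 28 Calcrl UMIs, against 0 of Ramp3 and Adrb1. Whether B cells express Calcrl was not tested, so their share sets no background level. By level, B cells over all T cells stood at 2.36 (1.15–4.34) in colon, where B cells were the shallower, and the intervals of the other 3 libraries held 1. Trdc-positive cells had 3 Calcrl UMIs in stomach, 8.31 CPM in small intestine, 14.9 CPM in the cecum and 14.6 CPM in the colon, Cd8a-positive cells 22.3, 13.9, 15.5 and 9.19 CPM and other T cells 10.5, 12.2, 14.3 and 14.3 CPM. Stomach mast cells had 13.4 CPM (9.90–17.8, 48 UMIs), and NK/ILC1 cells 16.9 CPM in stomach, 0 in small intestine, 25.1 CPM in the cecum and 21.2 CPM in the colon. Macrophages had 4.63 CPM in stomach, 0 in small intestine and 7.29 CPM in the colon. The highest values were in stomach ILC2, at 66.3 CPM (28.6–131, 8 UMIs in 6 of 46 cells), and in the colon helper T cells, at 54.7 CPM (28.3–95.6, 12 UMIs). The colon helper cells stood at 3.83 (1.82–7.54) times other T cells of colon; over the 4 libraries, with no filter on low counts, the log2 fold change was 1.05 (adjusted p = 0.293 by edgeR's quasi-likelihood test). Calcrl and Vipr2 had too few counts for the filtered fit.

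Whether the subunits were found in the same cell was counted directly. Of 9541 T-gated cells, 785 held a Ramp1 UMI, 307 a Calcrl UMI and 40 both, where the product of the 2 shares, summed over libraries, gives 26.7 cells. The excess was largest in the colon, with 24 cells against a product of 11.7. Cecum had 14 against 11.4, stomach 2 against 2.95 and small intestine 0 against 0.559. The product takes no account of depth, and deeper cells hold more UMIs of any gene. In stomach ILC2 all 6 cells with a Calcrl UMI also held Ramp1 (product 3.78), and in helper T cells 7 cells held both (product 3.48). Ramp3 and Calcrl were found together in 10 T cells against a product of 11.1, and Ramp1 and Ramp3 in 41 against 34.4. Ramp1 and Adrb1 shared 12 T cells, against a product of 46.5, with 1, 1, 3 and 7 cells in stomach, small intestine, cecum and colon. The product pools the T gates of a library, whose levels of Ramp1 and Adrb1 differ. The part of the gates in this shortfall was not tested. Vipr1 and Vipr2 shared 0 T cells, where the product gives 1.18.

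**Figure D2:**
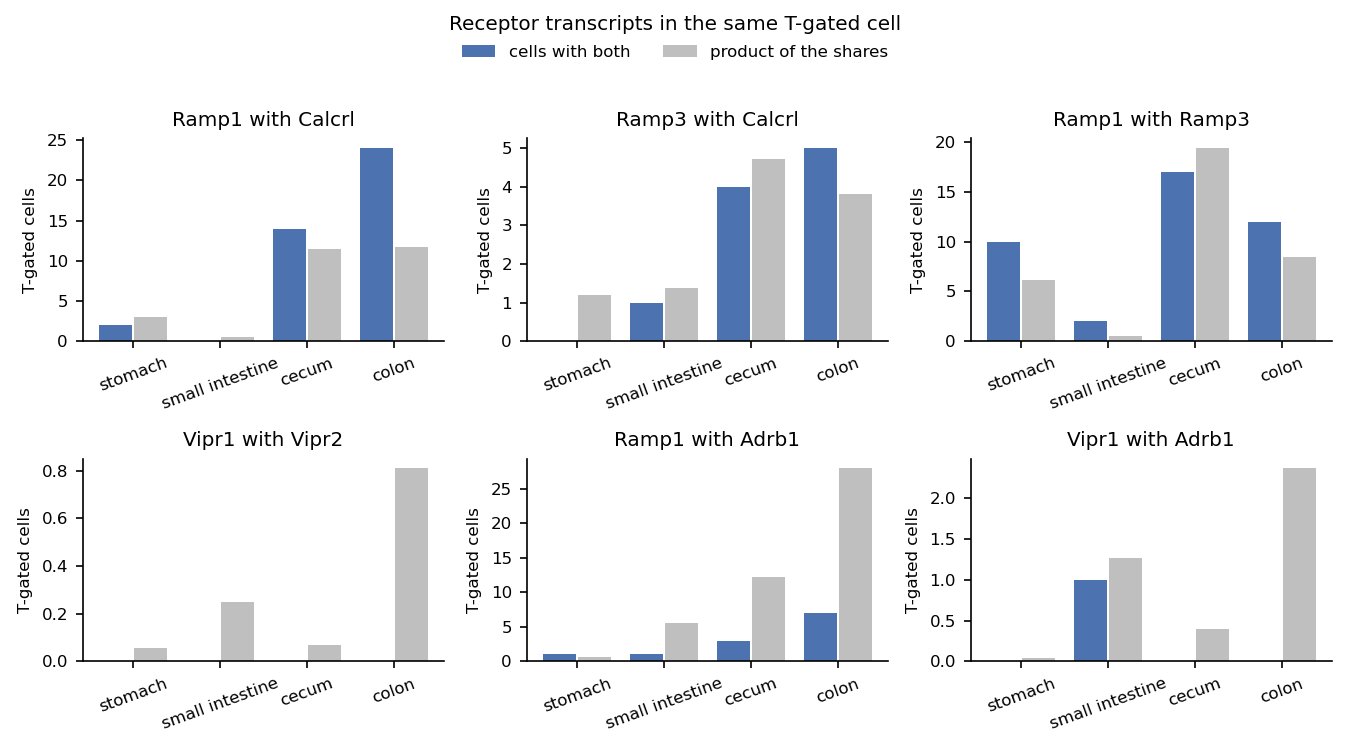
T-gated cells (y axis, from 0, scales differ) with a UMI of both genes of a pair (blue) and the number given by the product of the 2 shares of cells (grey), for each tissue library (x axis). Ramp1 with Calcrl has 24 colon cells against a product of 11.7, and Ramp1 with Adrb1 lies below the product in small intestine, cecum and colon.

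Adrb1, the beta-1 adrenergic receptor gene, had the reverse tissue order of Ramp1. T cells had 7.46 CPM (2.74–16.2) in stomach, 129 CPM (120–138) in small intestine, 18.5 CPM (15.4–22.1) in the cecum and 33.6 CPM (30.3–37.1) in the colon. The small intestine was the highest, then colon and cecum, and the stomach value rested on 6 UMIs, 4 of them in 1 cell. The ratio was 0.0580 (0.0212–0.127) for stomach over small intestine, 6.94 (5.74–8.44) for small intestine over cecum, 3.83 (3.39–4.33) for small intestine over colon and 0.552 (0.447–0.677) for cecum over colon. A UMI was found in 1.03% of T cells in stomach, 25.4% in small intestine, 3.05% in the cecum and 9.47% in the colon, and after thinning in 1.03%, 11.4%, 1.86% and 2.41%. No Adrb1 UMI was found in 815 B cells, 1464 stomach mast cells or any dendritic-gated cell. Without T cells that held other lineages' markers, the levels were 1.80 CPM in stomach, 141 CPM in small intestine, 19.0 CPM in the cecum and 35.5 CPM in the colon.

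Among the T gates, Trdc-positive cells had the highest Adrb1 level in small intestine, cecum and colon; in stomach 4 of their 5 UMIs sat in 1 cell, and without it their level was 6.67 CPM, beside 7.43 CPM in Cd8a-positive cells. Trdc-positive cells had 33.3 CPM in stomach (5 UMIs), 144 CPM (134–156) in small intestine, 36.0 CPM (25.9–48.9) in the cecum and 50.9 CPM (43.7–58.9) in the colon. Other T cells had 0 in stomach, which allows up to 7.84 CPM, 61.2 CPM (37.4–94.6) in small intestine, 12.4 CPM (8.79–16.9) in the cecum and 13.5 CPM (9.34–18.8) in the colon. The Trdc-positive value was the higher in these 3 libraries, with ratios of 2.36 (1.52–3.89) in small intestine, 2.92 (1.84–4.64) in the cecum and 3.77 (2.60–5.62) in the colon. The log2 fold change over the 4 libraries was 1.64 (SE 0.28, adjusted p = 0.00197, edgeR's quasi-likelihood test), the 1 call among 4 members tested in a contrast that called 0.643% of genes (0.345% higher). It was lost with DESeq2 (adjusted p = 0.0746), without the library block (1), and without cecum or colon, with adjusted p up to 0.134 over the libraries left out.

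Cd8a-positive cells had 7.43 CPM of Adrb1 in stomach (1 UMI), 108 CPM (91.5–127) in small intestine, 19.4 CPM (14.1–26.0) in the cecum and 32.7 CPM (28.0–38.0) in the colon. Trdc-positive over Cd8a-positive ratios were 1.34 (1.12–1.61) in small intestine, 1.86 (1.19–2.90) in the cecum and 1.55 (1.25–1.93) in the colon. The fitted difference, 0.66 on the log2 scale (SE 0.24), did not pass the test (adjusted p = 1, edgeR's quasi-likelihood test over all genes). In this contrast 0.238% of genes (0.119% higher and 0.119% lower) and 0 of 4 members were called, 1 had an unadjusted p under 0.05, and DESeq2 called 0. For Cd8a-positive over other T cells, where 0.0595% of genes were called (0.0238% higher and 0.0357% lower), 0 members passed by edgeR and 0 by DESeq2, 2 had an unadjusted p under 0.05, and Adrb1 stood at 0.99 on the log2 scale (SE 0.29, adjusted p = 0.448, edgeR). Helper T cells had 0 Adrb1 UMIs in stomach and cecum, 4 in small intestine and 2 in colon.

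The small intestine excess of Adrb1 was present in Trdc-positive, Cd8a-positive and other T cells, and not beyond counting error in helper T cells, where small intestine over colon was 2.08 (0.299–23.0) from 4 and 2 UMIs. Small intestine over cecum was 4.01 (2.92–5.64) in Trdc-positive cells, 5.58 (3.97–7.97) in Cd8a-positive cells and 4.95 (2.74–8.70) in other T cells. Small intestine over colon was 2.84 (2.40–3.37), 3.31 (2.63–4.14) and 4.54 (2.48–8.12) in the same order of gates. NK/ILC1 cells had 4 Adrb1 UMIs in small intestine, 1 in the cecum and 0 in stomach and colon. Stomach macrophages held 14 of the 22 Adrb1 UMIs of their library, at 10.8 CPM, and 30 small intestine macrophages had 43.5 CPM from 5 UMIs.

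Vipr2, which encodes VPAC2, shared the small intestine maximum of Adrb1 at lower counts. T cells had 6.21 CPM (2.02–14.5) in stomach, 20.4 CPM (17.0–24.2) in small intestine, 2.67 CPM (1.58–4.22) in the cecum and 11.0 CPM (9.16–13.1) in the colon. Small intestine over cecum was 7.64 (4.65–13.3) and small intestine over colon 1.85 (1.44–2.38), while stomach, with 5 UMIs, did not differ from cecum or colon beyond counting error. Trdc-positive cells had 0 UMIs in stomach and 22.5 CPM (18.4–27.3) in small intestine, 7.03 CPM (3.04–13.9) in the cecum and 17.1 CPM (13.1–22.1) in the colon. Other T cells had 13.1 CPM, 15.3 CPM, 0.951 CPM and 6.34 CPM in stomach, small intestine, cecum and colon. Cd8a-positive cells had 0 in stomach, 17.5 CPM in small intestine, 3.02 CPM in the cecum and 9.57 CPM in the colon. Trdc-positive over other T was 7.40 (1.78–43.3) in the cecum and 2.70 (1.54–5.03) in the colon; over the libraries, with no filter on low counts, it was 1.21 on the log2 scale (adjusted p = 0.199, edgeR's quasi-likelihood test).

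No Vipr2 UMI was found in 293 helper T cells, so that, at the limit of 3 counts, up to 1.02% could hold one (exact 95% upper bound 1.25%). All B, mast, macrophage and dendritic-gated cells also held 0 Vipr2 UMIs, with limits at 3 counts of 0.368%, 0.196%, 0.855% and 1.09% of cells. NK/ILC1 cells carried Vipr2 in every library, at 20.03 CPM (12.1–31.3, 19 UMIs) in stomach and, from 2 UMIs each, 16.1 CPM in small intestine, 16.7 CPM in the cecum and 10.6 CPM in the colon. In stomach they held 63.3% of the Vipr2 UMIs of the library, and the ratio to T cells was 3.22 (1.16–11.0). That ratio was 0.791 (0.0948–2.91) in small intestine, 6.28 (0.706–26.2) in the cecum and 0.965 (0.116–3.56) in the colon. Over the libraries, with no filter on low counts, NK/ILC1 over the mean of the T gates was 2.41 on the log2 scale (adjusted p = 0.0902, edgeR's quasi-likelihood test). After thinning, a UMI remained in 2.45% of the stomach NK/ILC1 cells and 0.344% of the stomach T cells.

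Vipr1, which encodes VPAC1, had a higher level in mast cells than in T cells of the same library, with ratios of 3.77 (1.41–14.2) in stomach and 56.7 (14.4–235) in small intestine. Mast cells had 18.7 CPM (14.5–23.8) in stomach and 43.8 CPM (16.1–95.3, 6 UMIs) in small intestine. Without the cell with the most Vipr1 UMIs in each library, the mast cell level of stomach was the higher. The small intestine level and ratio therefore lean on 1 cell, which the intervals do not take into account. Macrophages had 9.26 CPM in stomach, 8.70 CPM in small intestine and 7.29 CPM in the colon, the last 2 from 1 and 2 UMIs. T cells had 4.97 CPM in stomach, 0.772 CPM in small intestine, 1.93 CPM in the cecum and 2.62 CPM in the colon, from 4, 5, 13 and 30 UMIs. Helper T cells had 14.6 CPM, 4.75 CPM, 7.45 CPM and 31.9 CPM (12.8–65.8) in stomach, small intestine, cecum and colon, from 2, 1, 1 and 7 UMIs. Trdc-positive cells had 0, 2, 2 and 6 UMIs in the same order, Cd8a-positive cells 0, 1, 4 and 2 and other T cells 2, 1, 6 and 15. NK/ILC1 cells, stomach ILC2 and B cells had 0 Vipr1 UMIs.

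Across tissues, a gene entered a pair with 20 UMIs or more over both libraries, and a ratio of 2 or more in either direction was counted. For stomach over small intestine, Ramp1 and Ramp3 lay above 2-fold and Adrb1 and Vipr2 below it, 4 of 5 members entered, where 23.1% of all genes were past 2-fold (7.30% higher and 15.7% lower). For stomach over cecum 3 members were past 2-fold higher and 1 lower (6.93% and 14.8% of all genes, 21.7% in all), and for stomach over colon 2 higher and 1 lower (7.88% and 13.1%, 21.0% in all). Small intestine over cecum had 2 higher, Adrb1 and Vipr2, and 2 lower, Ramp1 and Ramp3, against 7.12% and 6.60% of all genes (13.7% in all). Small intestine over colon had 1 higher, Adrb1, and 2 lower, Ramp1 and Vipr1, against 5.84% and 5.32% (11.2% in all). Cecum over colon had 2 higher, Ramp1 and Ramp3, and 1 lower, Vipr2, against 2.37% and 3.50% (5.87% in all). In each pair the members' share was the larger, over 5 or 6 members. The members were chosen with earlier results of these data known, so the larger share is a description and no test. The pairs share libraries and are not independent of each other. The Vipr2 ratio of stomach over cecum, 2.33, is among those counted, and its interval (0.676–6.51) holds 1.

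**Figure D3:**
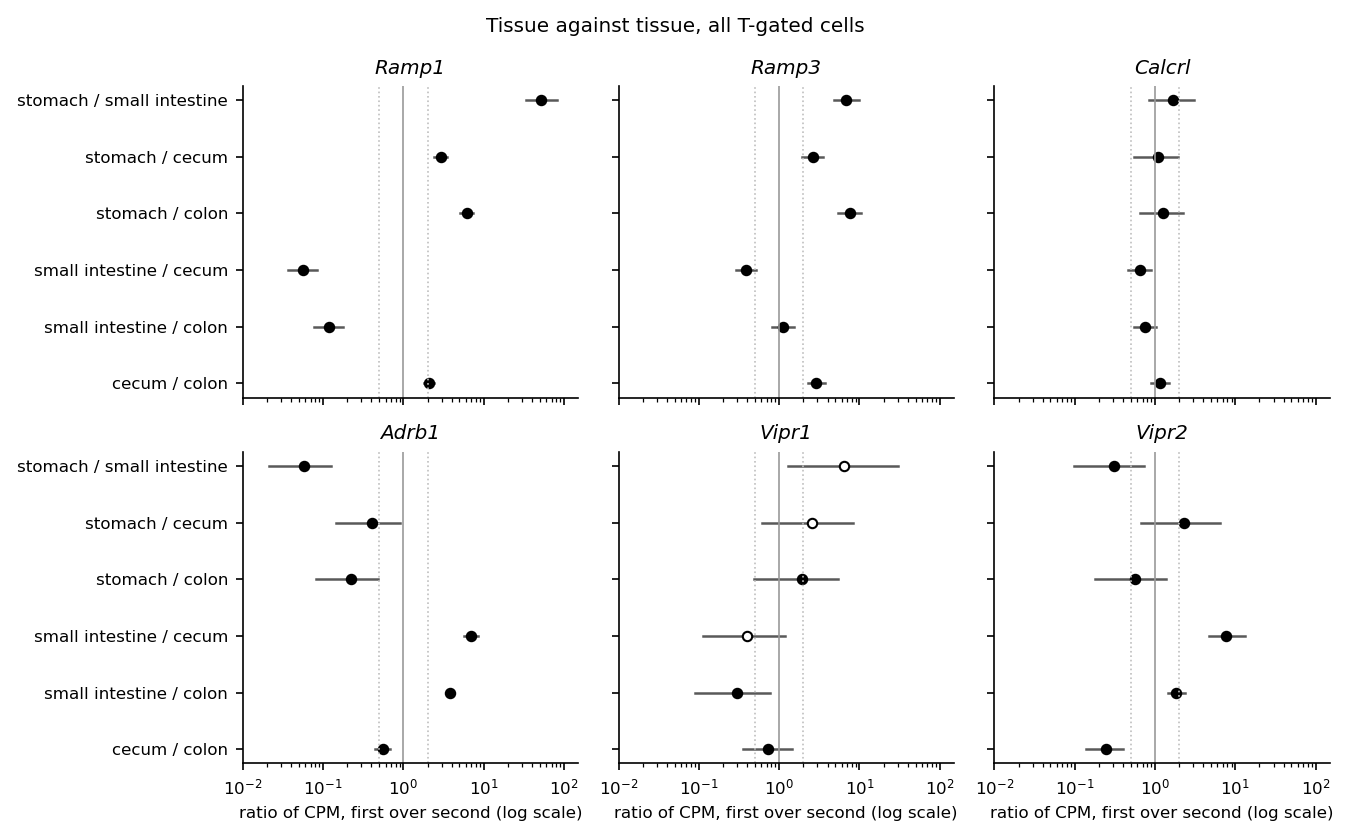
Ratio of CPM in all T-gated cells, first tissue over second (x axis, log scale), for the 6 pairs of tissue libraries (y axis); lines are exact 95% intervals for counting error only, dotted lines mark 2-fold, and open points have under 20 UMIs over both libraries. Ramp1 lies at 51.4 and Adrb1 at 0.0580 for stomach over small intestine, while the Calcrl points stay within 2-fold.

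Between gates of different lineages, more of the transcriptome was called, and each count of receptors is given beside that share. B cells were lower than the mean of the T gates in Ramp3, Adrb1 and Ramp1 (adjusted p = 0.000110, 0.000134 and 0.0240 by edgeR's quasi-likelihood test), 3 of 4 members tested, where 36.7% of genes were called (19.1% lower). B cells held 0 UMIs of Ramp3 and Adrb1, so the fitted log2 values of -8.21 and -7.39 depend on the prior count and are no bounds. The Ramp1 call of B cells was lost without cecum or colon (adjusted p up to 0.205), with a depth minimum and with mixed cells kept. Mast cells, with sums from stomach and small intestine only, were higher in Vipr1 (3.87 on the log2 scale, SE 0.71, adjusted p = 6.62e-05) and lower in Adrb1 (adjusted p = 0.000338) and Ramp3 (adjusted p = 0.000131), all by edgeR, 3 of 4 members, among 37.1% of genes called (17.6% higher and 19.5% lower). Without stomach the Ramp3 difference for mast cells was 0.18 on the log2 scale (adjusted p = 0.979). Macrophages were higher in Ramp1 (1.93, SE 0.74, adjusted p = 0.0374) and Vipr1 (2.19, SE 0.73, adjusted p = 0.0136) and lower in Ramp3 (-2.20, SE 0.78, adjusted p = 0.0219) by edgeR, 3 of 4 members, among 48.8% of genes called (25.0% higher and 23.8% lower). Macrophage sums came from stomach, small intestine and colon only. In that order, Ramp1 in macrophages over all T cells stood at 0.894 (0.731–1.10), 52.1 (28.6–94.4) and 5.95 (4.40–7.91). Without the library block the Ramp1 and Ramp3 calls of macrophages were lost (adjusted p = 0.0641 and 0.197, edgeR). The Ramp3 call was also lost with DESeq2 (0.242) and a depth minimum, and the Ramp1 call with gates on thinned cells. With single libraries left out, calls held in 1 of 4 fits for Ramp1, 1 of 4 for Ramp3 and 0 of 2 for Vipr1. Adjusted p there reached 0.264 for Ramp1, 0.319 for Vipr1 and 0.685 for Ramp3. NK/ILC1 cells were lower in Ramp3 (adjusted p = 0.00421, edgeR) the 1 call among 4 members where 4.80% of genes were called (1.75% lower), and that call was lost without the library block (adjusted p = 0.112) and without stomach or colon (up to 0.0882).

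**Figure D4:**
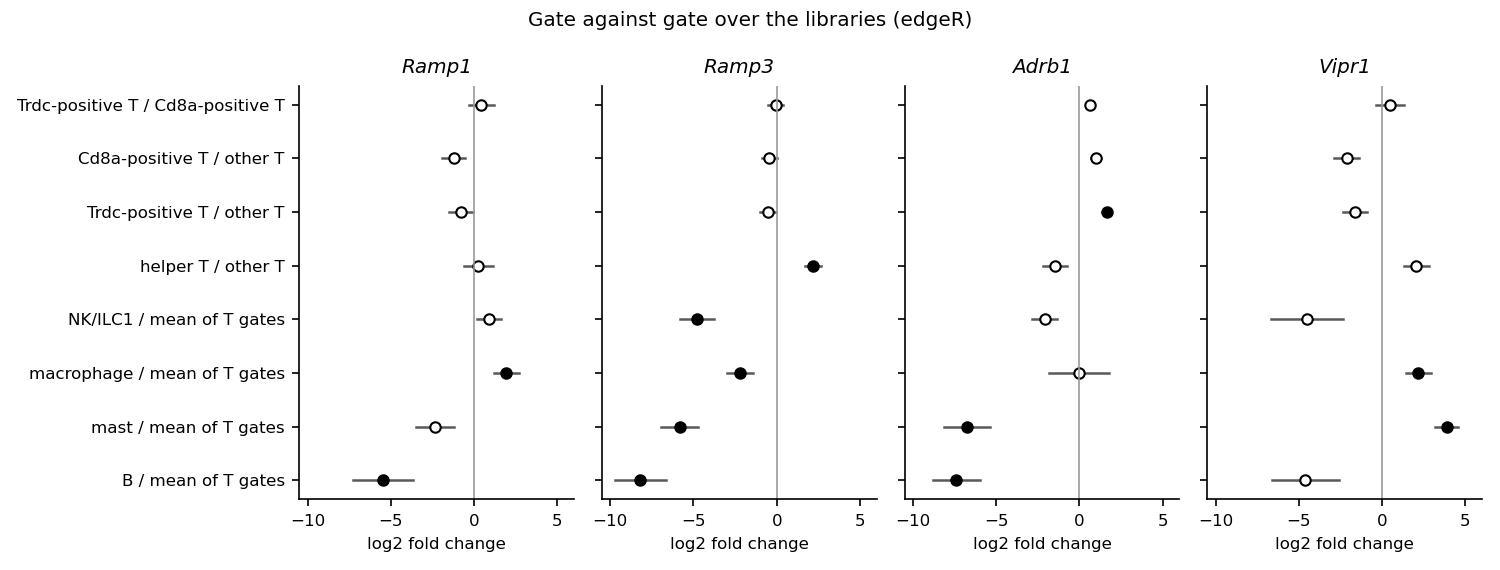
Log2 fold change (x axis) of the 4 members that passed the count filter for 8 gate contrasts (y axis, first gate over second), from edgeR's fit of sums per gate and library; bars are 1 SE and filled points have an adjusted p under 0.05. Adrb1 is filled for Trdc-positive over other T cells (1.64) and Ramp3 for helper over other T cells (2.19).

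Genes that act with these receptors were read in the same fits. The lists held 45 other neurotransmitter and neuropeptide receptors, 18 ligands and enzymes of their synthesis, 10 other Gs-coupled receptors, 32 genes of cyclic AMP signalling, 11 targets of the cyclic AMP-responsive factor CREB and 14 genes of Gq and calcium signalling, of which 54 genes passed the filter. By edgeR, 0 of the 54 were called for Trdc-positive over Cd8a-positive, Cd8a-positive over other T and Trdc-positive over other T cells. Of all genes, 0.238%, 0.0595% and 0.643% were called in the same order, so these counts of 0 do not set the lists apart. At an unadjusted p under 0.05 by edgeR there were 3, 5 and 5 of the 54, and DESeq2 called 0 in each. In helper over other T cells 4 were called, against 3.94% of all genes, and DESeq2 called 5. The edgeR calls were Itpr1, a calcium channel of internal stores, higher at 1.08 on the log2 scale (adjusted p = 0.0275), and, lower, Nr4a2, an immediate early nuclear receptor (-1.42, 0.0119), Rgs2, a regulator of G protein signalling (-0.96, 0.0479), and Prkacb, a catalytic subunit of protein kinase A (-0.68, 0.0478), all by edgeR's quasi-likelihood test. In NK/ILC1 cells over the T gates 5 were called by edgeR and 10 by DESeq2, against 4.80% of all genes by edgeR. Pde4d, a phosphodiesterase that breaks down cyclic AMP, was lower (-2.10, adjusted p = 2.22e-05), and Nr4a1 (1.22, 0.0263), Rgs1 (0.96, 0.00234), Rgs2 (0.84, 0.0141) and Crem, a CREB-family factor (0.79, 0.00288), were higher by the same test. In macrophages 38 of the 54 were called, in mast cells 31 and in B cells 36, each against the T gates and beside 48.8%, 37.1% and 36.7% of all genes.

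Between tissues the same lists were read by the 2-fold rule in T cells. Of 11 CREB targets, 5 were past 2-fold higher and 1 lower for stomach over small intestine, against 7.30% and 15.7% of all genes, and the list's median log2 ratio was 0.61 where that of all genes was -0.12. Areg, an epidermal growth factor family ligand, had 22.4 CPM in stomach and 4.48 CPM in small intestine. Nr4a1 had 792 CPM in stomach and 177 CPM in small intestine, a ratio of 4.48 (4.06–4.94). Nr4a2 went the other way, with 347 CPM in stomach and 1019 CPM in small intestine. Among 27 tested genes of cyclic AMP signalling, 2 were past 2-fold higher and 5 lower in the same pair; Grk6, a receptor kinase, had 77.1 CPM in stomach and 348 CPM in small intestine, and Gnas, which encodes the Gs alpha subunit, 428 CPM in stomach and 1068 CPM in small intestine. Of the other lists in this pair, 2 of 4 tested receptors, 2 of 4 ligand genes and 2 of 7 Gs-coupled receptors were past 2-fold higher, 0, 1 and 1 lower, and 0 of 12 genes of Gq and calcium signalling were past 2-fold.

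Ptger4, a Gs-coupled receptor for prostaglandin E2, had 263 CPM in small intestine and 48.2 CPM in cecum, a ratio of 5.45 (4.84–6.16). Of the ligand genes, Calcb, which encodes a form of CGRP, had 9.72 CPM in small intestine T cells and 0.741 CPM in cecum T cells, with 3.31 CPM in the colon, and Calca, which encodes the other form, had 19.9 CPM in stomach and 3.55 CPM in small intestine, from 16 and 23 UMIs. Ddc, an enzyme of catecholamine and serotonin synthesis, had 9.94 CPM in stomach, 129 CPM in small intestine, 37.0 CPM in the cecum and 82.6 CPM in the colon.

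Genes whose level was most like each receptor were taken over 26 sums of gate and library with 50 cells or more, among 11219 genes, by Pearson's r of log2(CPM + 10). The sums share libraries and depth, so r is a description only. Most like Adrb1 were St6galnac2 (0.90), Acoxl (0.87), Mcam (0.86) and Igf2bp2 (0.86). Most like Ramp3 were Cd5 (0.89), Izumo1r (0.89), Icos (0.87) and A430093F15Rik (0.87), of which Cd5 and Icos encode surface receptors of T cells. For Ramp1 they were Zyx (0.83), Tbc1d16 (0.80), Smox (0.78) and Icam1 (0.77), and for Vipr2 A930001A20Rik, Itgad, Arhgef5 and Myo3b (0.85 each). For Calcrl they were Slc50a1 (0.80), Fam107b, Syf2 and Dvl3 (0.78 each), and for Vipr1 Hnrnpll (0.81), Galm (0.80), Ero1l (0.79) and Map4k3 (0.78). Between the receptors themselves the highest r was that of Adrb1 with Vipr2 (0.55); Ramp1 had 0.36 with Ramp3, 0.15 with Calcrl and -0.22 with Adrb1.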

How the data were processed

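The 4 deposited matrices hold raw UMI counts per gene symbol and cell, made by the authors with the 10x Genomics 3′ kit per the labels and with Cell Ranger and Seurat 3.0.0 on GRCm38 (mm10) per the submitters' processing notes. The labels' extraction protocol names colons in all 4 records; the tissue labels were used. Cells with 200 listed genes or more were kept (14373 of 14378), with 9021907 UMIs in stomach, 11750691 in small intestine, 8568438 in the cecum and 12987965 in the colon. No ribosomal protein or mitochondrial symbols are listed, and pairs of libraries shared 1 to 6 cell barcodes. Cells were gated by fixed marker genes without clustering, and cells meeting several gates were left out (181, 171, 87 and 58 in stomach, small intestine, cecum and colon) in place of a doublet caller. Stomach mast cells (1464) outnumbered its other gates.

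UMIs were summed per gate and library and given as CPM with exact Poisson intervals; shares of cells have exact (Clopper-Pearson) intervals and tissue ratios exact conditional binomial intervals, all at 95% and for counting error only. Counts of 0 were given the level of 3 counts as their limit. Gates were compared on 29 sums with edgeR 4.0.16 (R 4.3.3; TMM, filterByExpr, quasi-likelihood test, library as a block, 18 residual degrees of freedom), with an adjusted p threshold of 0.05; DESeq2 1.42.0 was an alternative. The edgeR step was tested on simulated counts. The rule named the members in every gate of 50 cells or more; Nmur1 had no values, and values of smaller gates are printed beside them. List genes past the test or 2-fold were named up to 4 per direction, and 4 genes by likeness. The members and lists were chosen with earlier results of these data known. Gene positions were taken from GENCODE vM21 and promoters from RefSeq.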

Additional observations from a re-analysis of the deposited data

Results flagged for a closer look

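Ramp1 differed between Trdc-positive and Cd8a-positive T cells in opposite directions in 2 tissues: the ratio of CPM, Trdc-positive over Cd8a-positive, was 15.7 in stomach and 0.245 in small intestine, with counting intervals on either side of 1. Trdc-positive over other T cells was likewise 2.48 in stomach, and 0.107 in small intestine, 0.507 in the cecum and 0.369 in the colon. Mast cells over all T cells stood at 0.0732 in stomach and 12.7 in small intestine. The small intestine value rests on 51 mast cells, which held 1.37% of the 512 Ramp1 UMIs of that library. These differences between tissues were not tested, since each tissue is 1 library.

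In small intestine, cecum and colon, Vipr1 was found above every compared gate in the few cells that passed the epithelial gate, which no comparison above uses; the 1 such cell of stomach held 0 Vipr1 UMIs. Its level was 83.5 CPM in 17 such cells of small intestine, where the highest compared gate, mast cells, had 43.8 CPM. In cecum it was 326 CPM in 1 cell, where the highest gate had 16.4 CPM, and in the colon 223 CPM in 2 cells, where the highest gate had 31.9 CPM.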

How the results depend on the processing

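The counts of genes called between gates depended on the settings. Without the replicate block, that is without the library as a term although the gates of a library come from the same preparation, the genes called were 7 for Trdc-positive over Cd8a-positive T cells (20 with it), 1 for Cd8a-positive over other T (5), 6 for Trdc-positive over other T (54), 97 for helper over other T (331) and 206 for NK/ILC1 over the T gates (403); of the members, 0 were then called for Trdc-positive over other T, helper over other T and NK/ILC1 (1 each with it) and 1 for macrophages (3). DESeq2 called 6, 2 and 22 genes in the first 3 of these contrasts and 0 members for Trdc-positive and helper over other T. With 2000 UMIs or more per cell the counts were 12 for Trdc-positive over Cd8a-positive, 33 for Trdc-positive over other T, 161 for helper and 243 for NK/ILC1, with 1 member for macrophages. With 2 UMIs for the T gates they were 9 for Cd8a-positive and 98 for Trdc-positive over other T and 204 for helper. With sums of 50 cells or more they were 31 and 152, and with no filter on low counts 34 for Trdc-positive over Cd8a-positive and 8 and 84. Gates on thinned cells gave 2 for Cd8a-positive over other T and 180 for helper, mixed cells kept gave 1, stricter gates 1, and T cells without other lineages' markers 2, in Cd8a-positive over other T.

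Leaving out 1 library in turn, genes called ranged from 6 to 24 for Trdc-positive over Cd8a-positive, 0 to 31 for Cd8a-positive over other T, 11 to 142 for Trdc-positive over other T, 48 to 440 for helper, 188 to 341 for NK/ILC1, 889 to 2980 for mast and 1933 to 3166 for B cells. The lowest counts came without colon for the first 3, without cecum for helper, NK/ILC1 and B, and without stomach for mast. Members called ranged from 0 to 1 for Trdc-positive and helper over other T, NK/ILC1 and macrophages. The calls of Adrb1 and Ramp3 in B cells and of Adrb1 in mast cells passed under all 16 alternatives and that of Vipr1 in mast cells under all 12 run.

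Of the directions, 4 turned. The value of Ramp3, log2 fold change, mast over the mean of the T gates, ranged from -9.31 to 0.18 on the log2 scale over the libraries left out, with the positive value without stomach. Without the cell with the most UMIs, the log2 ratio of Ramp3 in Trdc-positive cells, stomach over cecum, was -0.66, and that of Vipr1 in mast cells, stomach over small intestine, 0.32. Vipr2 in other T cells, stomach over colon, was -0.43 with gates on thinned cells. With those gates 5 members were past 2-fold for stomach over colon (3 otherwise). The causes of these changes were not tested. With 2000 UMIs or more 5 T cells held Ramp3 and Calcrl (10 otherwise). That setting keeps a part of the same cells, so this count can only fall. The stomach T gate, with 291 cells, limits the precision of every stomach value.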

Other observations

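Mast cells were higher in Tph1, which encodes the first enzyme of serotonin synthesis (8.36 on the log2 scale, SE 0.29, adjusted p = 1.15e-13), and in Ddc, which encodes the next (3.46, SE 0.57, adjusted p = 6.34e-05), than the mean of the T gates, by edgeR's quasi-likelihood test. In stomach T cells Tph1 had 18.6 CPM from 15 UMIs, and in small intestine T cells 0.772 CPM from 5 UMIs; the stomach T gates also carried mast cell proteases, at 305 to 1310 CPM, and the part of mast cell transcripts in that difference was not tested.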
